A study of Homo sapiens with 22 samples.

Results

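U-87MG, an established human glioblastoma cell line that grows attached in serum, was compared with 4 other glioblastoma lines, KNS-42, LN-229, SNU-1105 and U-138MG. The comparison used 2 U-87MG libraries against 8 libraries, 2 for each of the other lines, out of 16 libraries of 8 lines in the same table and 22 libraries of 11 lines in the series. All 10 libraries were poly(A) RNA-seq of untreated cells, and U-87MG and U-138MG were grown in EMEM, KNS-42 and LN-229 in DMEM, and SNU-1105 in RPMI, each with 10% fetal bovine serum. KALS-1, LN-18 and T98G of the same table were left out of the comparison and are quoted only for reference. Medium is a property of the line here, so a medium difference and a line difference cannot be told apart, except that U-138MG shares the medium of U-87MG. Each group is 1 cell line. The labels do not tell if both libraries of a line were grown as separate cultures, and the p-values rest on the difference between them, which may be only technical. In bulk RNA a smaller share of cells that express a gene and less RNA of it per cell cannot be told apart.

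Glioblastoma cells can make cytokines themselves. Ligands of the interleukin-1 family bind receptors that switch on the transcription factor NF-kB, which raises the transcription of chemokines, of enzymes of prostaglandin synthesis and of its own feedback inhibitors. The interferon response is a separate program, in which STAT transcription factors raise genes that sense or restrict viruses. U-87MG is among the most used glioblastoma lines, and it is known as a line with mesenchymal features.

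The table lists 2221 genes, and how the authors chose them is not stated. Of these, 99.3% had a mean FPKM (reads scaled to gene length and library total) at least 2-fold apart between the 5 lines used here and the 3 left out, and every count below is a count of listed genes. Between U-87MG and the mean of its 4 comparison lines 62.0% of genes were at least 2-fold apart. Library totals were 19431835 to 21011463 reads, as implied by the deposited values, of which the listed genes held 7.17% to 10.2%, and levels below are CPM, the reads of a gene scaled to these totals. A count of 0 in 1 library allows up to 3 reads, or 0.143 to 0.154 CPM, counting error only. The 2 U-87MG libraries lay within 1.5-fold of each other for 89.2% of the 1131 genes with at least 1 CPM.

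The table holds few defining glial markers. Of 15 markers of neural stem cells and astrocytes 5 were listed and none was called, and the stem cell transcription factor SOX2 had 0.195 and 0.0499 CPM in U-87MG libraries, against 0.2 to 818 CPM (median 109) in the 8 others. VIM, the intermediate filament gene vimentin, was at 5406 and 4485 CPM in U-87MG, against 3249 to 5031 CPM (median 3798) in the others. Over the 5 listed markers the median log2 difference to the 4 lines was -3.52, against -0.04 over all 2221 genes. This used log2(mean CPM + 1), averaged over the 4 lines. U-87MG was lower than KNS-42 in 3 of the 5 and higher in 1 (all tested genes: 34.1% and 30.2%). Against LN-229 the counts were 3 and 1 (28.4% and 29.9%), and against SNU-1105 4 and 0 (24.7% and 30.0%). Against U-138MG they were 0 and 1 (24.6% each). The leukocyte antigen gene PTPRC had 1 read in U-87MG over both libraries and the epithelial cadherin gene CDH1 had 0 reads. Other members of these lists had reads in U-87MG, such as CSF1R and KRT18, given below. Of 76 symbols in 7 marker lists (neural stem and astrocyte, oligodendrocyte, neuron, leukocyte, endothelial, fibroblast and pericyte, epithelial) only 17 could be tested, 0 of them endothelial, and none of the 17 was called. By the rule given next, 7.47% of all tested genes were called above and 4.32% below.

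A gene was called above all 4 lines when edgeR's quasi-likelihood test gave a positive log2 fold change against each line, the largest of the 4 two-sided p-values was under 0.05 after Benjamini-Hochberg adjustment over the 1714 genes tested, the fold over the nearest line was at least 2, and both U-87MG libraries exceeded all 8 others. Calls below all 4 lines mirror this. Non-overlap of the libraries is therefore part of the call and adds nothing to it. U-87MG stood above all 4 lines in 128 of 1714 genes (7.47%) and below all 4 in 74 (4.32%). Without the test and the fold limit, both U-87MG libraries exceeded the 8 others in 286 genes (16.7%) and lay under them in 206 (12.0%). The same count for KNS-42 against the other 4 lines gave 399 above and 245 below, for LN-229 226 and 197, for SNU-1105 143 and 184 and for U-138MG 241 and 179, so U-87MG ranked second among the 5 lines in each direction.

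Line by line, U-87MG was higher than KNS-42 in 517 genes (30.2%) and lower in 585 (34.1%), higher than LN-229 in 513 (29.9%) and lower in 486 (28.4%), higher than SNU-1105 in 514 (30.0%) and lower in 424 (24.7%), and higher than U-138MG in 421 (24.6%) and lower in 422 (24.6%). These comparisons share the U-87MG libraries. With TMM scaling the balance turned against LN-229, to 477 higher and 518 lower, and against SNU-1105, to 430 higher and 522 lower. The median fold of the called genes was 4.18 over the highest line and 4.11 under the lowest line. At least 10-fold separation was seen for 28 genes above and 14 below. The line nearest to U-87MG was U-138MG for 48 of the 128 genes above and for 29 of the 74 below, more than any other line.

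**Figure D1:**
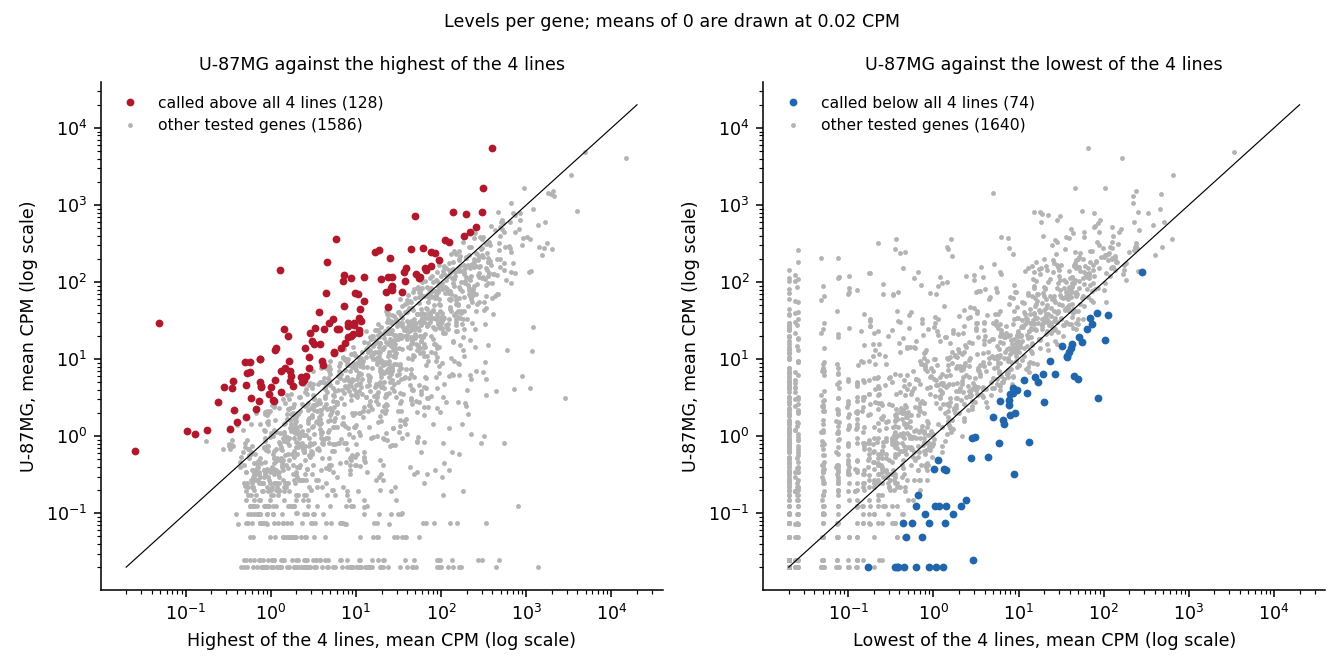
Mean level of each of the 1714 tested genes in U-87MG (vertical axis, CPM, log scale) against the highest of the 4 other lines (left panel) and the lowest of them (right panel), with the line of equal levels. The 128 genes called above (red) lie over the line in the left panel and the 74 called below (blue) lie under it in the right panel, 12 of them with fewer than 3 reads in U-87MG.

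Some genes of secreted inflammatory ligands were high in U-87MG. Of 10 tested cytokine and chemokine genes 5 were called above all 4 lines (IL36B, IL1RN, CXCL3, IL1A, CCL20) and 1 below (CCL2), against 7.47% and 4.32% of all tested genes. The log2 difference of a gene is log2(mean CPM + 1) in U-87MG less the average of that value over the 4 lines. Its median over the 14 listed members was 1.40, against -0.04 over all 2221 genes. The added 1 CPM draws genes with low levels toward 0, here and in the lists below. Line by line, 8 members were higher and 1 lower in U-87MG than in KNS-42, and 5 and 3 than in LN-229. Against SNU-1105 and U-138MG the counts were 7 and 1 each. Of all tested genes, 30.2% were higher and 34.1% lower than in KNS-42, and 29.9% and 28.4% than in LN-229. These shares were 30.0% and 24.7% against SNU-1105, and 24.6% in each direction against U-138MG. The cytokine list was drawn up with earlier results of these data known, so its count is a description.

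A group of 3 genes of the interleukin-1 cluster, which lie within chromosome 2, 112773915 to 113134016 (GRCh38), were all called above, with no other listed gene between them. IL36B, an agonist ligand of the interleukin-1 family, had 101 and 186 CPM in the U-87MG libraries, against 0 to 2.18 CPM (median 0.0499) in the 8 others. That is 113-fold over SNU-1105, the highest of the 4 lines (log2 fold change 6.82 against SNU-1105, SE 0.55, adjusted p = 2.66e-06). KNS-42 and LN-229 had 0 reads of IL36B in all 4 libraries, and the fold over the highest line ranged from 65.7-fold without SNU-1105 replicate 2 to 409.6-fold without SNU-1105 replicate 1. IL1RN, which encodes the secreted antagonist of the interleukin-1 receptor, had 12.7 and 36.5 CPM in U-87MG, against 0 to 2.08 CPM (median 0.1) in the others (17.4-fold over the highest line; log2 fold change 4.11 against SNU-1105, SE 0.51, adjusted p = 4.91e-05). Its fold ranged from 8.99-fold without U-87MG replicate 2 to 32.8-fold without SNU-1105 replicate 1. IL1A, the interleukin-1 alpha ligand, was at 13.8 and 14.4 CPM in U-87MG, against 0.409 to 3.46 CPM (median 0.888) in the others (5.58-fold; log2 fold change 2.48 against SNU-1105, SE 0.37, adjusted p = 1.95e-04), and reached 8.81-fold without SNU-1105 replicate 1. Agonist and antagonist genes of the same receptor system were thus both higher in U-87MG.

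The chemokines were split. CXCL3, a neutrophil attractant of the CXC family, had 84.1 and 146 CPM in U-87MG, against 0.0511 to 15.5 CPM (median 0.94) in the 8 others (9.3-fold; log2 fold change 3.22 against U-138MG, SE 0.31, adjusted p = 3.60e-06). Its close paralog CXCL1 had 12 and 26.8 CPM in U-87MG and 44 ± 3.41 CPM in LN-229 (SD, n = 2), with at most 3 reads in a library of the other 3 lines, and was not called. Reads can be shared between such paralogs, so both values are uncertain. CCL20, which attracts cells that carry the receptor CCR6, had 4.93 and 9.28 CPM in U-87MG, against 0 to 1.86 CPM (median 0.102) in the others (4.27-fold; log2 fold change 2.09 against LN-229, SE 0.48, adjusted p = 0.00679). CCL2, the main monocyte attractant, went the other way, with 0.781 and 0.848 CPM in U-87MG, against 5.54 to 578 CPM (median 52) in the others (7.23-fold under U-138MG; log2 fold change -2.85 against U-138MG, SE 0.24, adjusted p = 9.45e-07). The highest CCL2 level was that of KNS-42, at 546 ± 45 CPM (SD, n = 2). LIF, a cytokine that signals through the gp130 receptor chain, had 271 and 484 CPM in U-87MG, against 6.04 to 285 CPM (median 81.3) in the others, and its libraries overlapped those of LN-229. The call of CCL20 was lost without U-87MG replicate 2 (smallest log2 fold change 1.56, adjusted p = 0.165) and without LN-229 replicate 2 (1.93, adjusted p = 0.0725).

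The list of receptors and NF-kB feedback genes gave 4 of 10 tested genes above and 0 below, against 7.47% and 4.32% of all tested genes. The median log2 difference was 1.44 over the 11 listed, against -0.04 over all genes. The called members were PTGES and the receptor genes TNFRSF1B, IL15RA and IL6ST, whereas TNFAIP3, TNFAIP2 and TNIP3 were not called. PTGES, the inducible synthase of prostaglandin E, had 265 and 461 CPM in U-87MG, against 0.655 to 9.01 CPM (median 3.06) in the others, 62.8-fold over SNU-1105 (log2 fold change 5.97 against SNU-1105, SE 0.55, adjusted p = 2.66e-06) and 40.3-fold without SNU-1105 replicate 1. TNFRSF1B, a receptor of tumour necrosis factor, had 116 and 114 CPM in U-87MG, against 0.0511 to 27.8 CPM (median 3.2) in the others (4.86-fold; log2 fold change 2.28 against U-138MG, SE 0.28, adjusted p = 2.96e-05). IL15RA, the chain that presents interleukin-15, was at 2.93 and 4.04 CPM in U-87MG, against 0.2 to 1.02 CPM (median 0.564) in the others (3.67-fold; log2 fold change 1.87 against KNS-42, SE 0.44, adjusted p = 0.00785). IL6ST, the gp130 chain itself, had 480.1 and 546 CPM in U-87MG, against 98.6 to 286 CPM (median 236) in the others (2.02-fold; log2 fold change 1.01 against SNU-1105, SE 0.23, adjusted p = 0.00582). For PTGES and TNFRSF1B the gap to the next library was wide, whereas IL6ST passed the fold limit narrowly. TNFAIP3, which encodes the A20 feedback inhibitor of NF-kB, had 55.5 and 72.3 CPM in U-87MG and 6.55 to 59.7 CPM (median 20.5) in the others, overlapping U-138MG. The call of IL15RA was lost without U-87MG replicate 2 (1.62, adjusted p = 0.108) or KNS-42 replicate 1 (1.76, adjusted p = 0.0771). That of IL6ST was lost without U-87MG replicate 2 (0.92, adjusted p = 0.0752), LN-229 replicate 2 (0.94, adjusted p = 0.0358) or SNU-1105 replicate 1 (0.84, adjusted p = 0.0238), and also with TMM or RLE scaling.

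The 2 U-87MG libraries differed in these genes. Of 9 cytokine genes with at least 1 CPM in U-87MG, 6 were at least 1.5-fold higher in the second library and 0 in the first, where the whole table gave 78 (6.9%) and 44 (3.89%) of 1131 genes. PTGES moved with them, while IL1A and TNFRSF1B had nearly equal levels in both libraries. Of 12 leukocyte markers 5 were listed, their summed level was 9.22 and 9.68 CPM in the U-87MG libraries, against 0.823 to 38.8 CPM in the 8 others, and CD14 had 4 reads in U-87MG. The part of these markers in the result and the source of the library difference were not tested. Without the second U-87MG library the fold over the highest line was 8.99 for IL1RN, 6.79 for CXCL3, 3.09 for IL15RA and 2.96 for CCL20. The highest of the leukocyte markers in U-87MG was CSF1R, the receptor of a macrophage growth factor. It had 8.49 and 8.78 CPM in U-87MG and 24.4 ± 2.58 CPM in SNU-1105 (SD, n = 2).

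**Figure D2:**
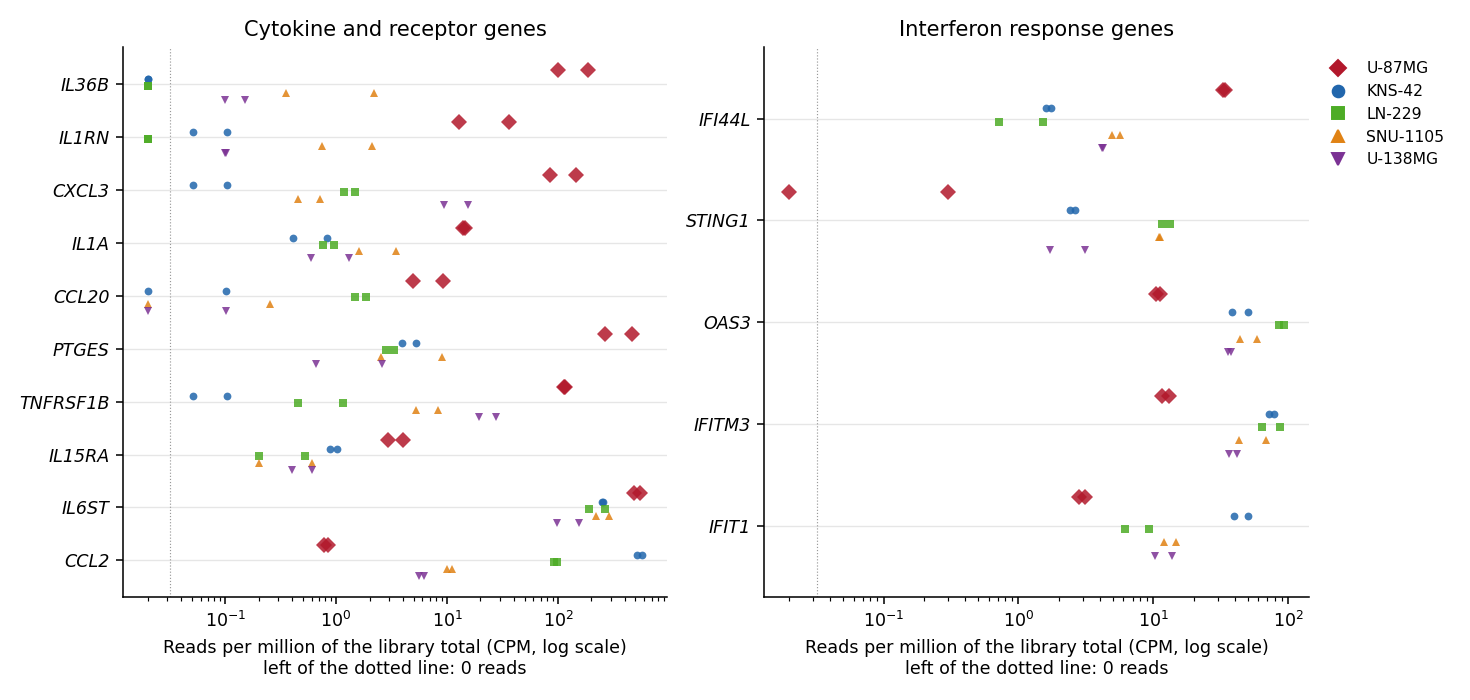
Level in each of the 10 libraries (CPM, log scale) of the called cytokine and receptor genes (left) and the called interferon response genes (right). As the call requires, U-87MG libraries (red diamonds) lie to the right of all 8 others for the 9 genes from IL36B to IL6ST and for IFI44L, and to the left for CCL2, STING1, OAS3, IFITM3 and IFIT1.

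The promoters of the 2 called chemokine genes that hold a match to the NF-kB binding motif are shown, since NF-kB is the known activator of this gene group. They run from 250 bases before to 50 bases after the RefSeq gene start (GRCh38.p14), 5′ to 3′ on the strand of the gene, with the motif match in capitals. CXCL3 is at chr4:74038640-74038939, minus strand, and CCL20 at chr2:227813592-227813891, plus strand.
CXCL3: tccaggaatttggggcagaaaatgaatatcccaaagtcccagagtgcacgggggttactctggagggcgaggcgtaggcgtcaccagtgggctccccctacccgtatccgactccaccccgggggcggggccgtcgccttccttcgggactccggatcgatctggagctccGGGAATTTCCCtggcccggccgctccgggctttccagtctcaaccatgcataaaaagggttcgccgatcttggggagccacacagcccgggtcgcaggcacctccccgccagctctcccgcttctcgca
CCL20: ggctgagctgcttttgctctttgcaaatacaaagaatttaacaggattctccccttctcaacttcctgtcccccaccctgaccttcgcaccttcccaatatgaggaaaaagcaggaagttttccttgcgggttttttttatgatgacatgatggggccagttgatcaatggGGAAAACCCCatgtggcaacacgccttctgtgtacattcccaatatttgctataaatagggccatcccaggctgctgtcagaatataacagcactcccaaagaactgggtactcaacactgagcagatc
In both genes the match starts 79 bases before the gene start, and in CXCL3 it consists of overlapping matches on the 2 strands. IL36B had no entry in the promoter table. The promoters of IL1A, IL1RN, PTGES, TNFRSF1B, IL15RA and IL6ST held no match to the motif, and IL1A and IL1RN held matches to TGANTCA, the AP-1 motif, searched like the others on both strands. The NF-kB motif was found in 8 of 85 promoters of genes called above (9.41%) and 11 of 56 of genes called below (19.6%), against 8.92% of 1357 listed and 5.91% of 35116 promoters in all. The AP-1 motif was found in 12 of 85 promoters above (14.1%) and 3 of 56 below (5.36%), against 7.37% of listed and 7.71% of all promoters. The cyclic AMP response element TGACGTCA was found in 0 of 85 above, against 1.62% of listed promoters. A match is a description of the letters, not a site of binding.

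Interferon response genes differed in both directions. Of 28 tested members 4 were called below (STING1, OAS3, IFITM3, IFIT1) and 1 above (IFI44L), against 4.32% and 7.47% of all tested genes. The median log2 difference was -0.51, against -0.04 over all genes. Line by line, 10 members were higher and 8 lower in U-87MG than in KNS-42 (all tested genes: 30.2% and 34.1%). Against LN-229 4 were higher and 15 lower (all tested genes: 29.9% and 28.4%). The counts were 3 and 14 against SNU-1105 (all tested genes: 30.0% and 24.7%). They were 4 and 10 against U-138MG (all tested genes: 24.6% each). STING1, the adaptor that relays cytosolic DNA sensing, had 0 and 0.299 CPM in U-87MG, 6 reads in all, against 1.71 to 13.3 CPM (median 7.01) in the others (16.1-fold under U-138MG; log2 fold change -3.96 against U-138MG, SE 0.61, adjusted p = 2.43e-04). Its fold was 8.03-fold without U-87MG replicate 1, the replicate with no read of the gene. OAS3, which makes the activator of RNase L, had 10.4 and 11.2 CPM in U-87MG, against 35.9 to 92.9 CPM (median 47.1) in the others (3.4-fold lower; log2 fold change -1.76 against U-138MG, SE 0.21, adjusted p = 2.47e-05). IFITM3, which blocks viral entry at membranes, had 11.6 and 13 CPM in U-87MG, against 36.5 to 86.2 CPM (median 66.2) in the others (3.17-fold lower; log2 fold change -1.66 against U-138MG, SE 0.24, adjusted p = 1.42e-04), and is uncertain because its paralogs are near-identical. IFIT1, which binds foreign RNA, had 3.12 and 2.79 CPM in U-87MG, against 6.14 to 50.1 CPM (median 12.8) in the others (2.61-fold lower; log2 fold change -1.38 against LN-229, SE 0.28, adjusted p = 0.0025). IFI44L ran against these, at 34.2 and 32.9 CPM in U-87MG and 0.714 to 5.69 CPM (median 2.96) in the others (6.3-fold higher; log2 fold change 2.65 against SNU-1105, SE 0.26, adjusted p = 4.74e-06). IFI6 was at 6.59 and 6.89 CPM in U-87MG, under all 8 others at 11.7 to 27.2 CPM (median 16.1), but just short of 2-fold. The transcription factor gene IRF1 had 26.7 and 26 CPM in U-87MG, above all 8 others at 10.7 to 21.3 CPM (median 17.2), and was not called (adjusted p = 0.268).

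Antigen presentation separated the lines in another way, with few calls, where 7.47% of all tested genes were called above and 4.32% below. Of 14 tested genes 1 was called above, HLA-DRB5, a class II beta chain gene, with 106 and 114 CPM in U-87MG, against 0 to 20 CPM (median 3.96) in the others (5.63-fold over LN-229; log2 fold change 2.49 against LN-229, SE 0.21, adjusted p = 1.03e-06). Class II beta chain genes are near-identical and their presence differs between genomes, so its reads are uncertain. HLA-DRA, the class II alpha chain gene, had 129.6 and 143 CPM in U-87MG, lower than in LN-229 (1064 ± 114 CPM; log2 fold change -2.97, SE 0.20, adjusted p = 8.18e-09) and KNS-42 (491 ± 28.6 CPM; log2 fold change -1.85, SE 0.19, adjusted p = 5.88e-07) and higher than in SNU-1105 (0.655 ± 0.136 CPM) and U-138MG (29.1 ± 6.98 CPM; SD, n = 2 each). CD74, the invariant chain of class II, was likewise intermediate at 257 and 282 CPM in U-87MG. HLA-C, a class I gene, had 69.6 and 69.4 CPM in U-87MG, against 45.7 to 285 CPM (median 174) in the others.

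The 15 genes with the largest fold over the highest line, among those with at least 10 CPM in U-87MG, came from different functional classes, among them adaptors, enzymes, receptors and secreted ligands. The largest was APBB1IP, an adaptor that links the small GTPase Rap to integrin activation and is best known from leukocytes, at 32.6 and 26.5 CPM in U-87MG. It had 2 reads in LN-229 and 0 in KNS-42, SNU-1105 and U-138MG. The ratio to LN-229 was 603 (95% exact counting interval 166 to 4981; log2 fold change 9.06 against LN-229, SE 0.46, adjusted p = 1.87e-07). SBSN, a secreted protein of stratified epithelium, had 169 and 191 CPM in U-87MG, against 0 to 5.24 CPM (median 1.65) in the others (39-fold; log2 fold change 5.28 against U-138MG, SE 0.25, adjusted p = 6.51e-09). The epithelial keratin KRT18 was not called, at 0.39 and 0.299 CPM in U-87MG, against 0.252 to 52.5 CPM (median 22.6) in the others. ABCA1, which exports cholesterol to apolipoproteins, had 621 and 803 CPM in U-87MG, against 30.5 to 55.1 CPM (median 45.8) in the others (14.3-fold; log2 fold change 3.83 against SNU-1105, SE 0.23, adjusted p = 4.53e-08). SHC3, a neuronal adaptor of receptor tyrosine kinases, had 115 and 131 CPM in U-87MG, against 1.8 to 7.93 CPM (median 5.43) in the others (16.9-fold; log2 fold change 4.08 against KNS-42, SE 0.30, adjusted p = 2.80e-07). Both ABCA1 and SHC3 had reads in all 8 other libraries. The remaining members of the 15 were ITGB1-DT, a long noncoding RNA gene, FHAD1, and ATP6V0D2, a proton pump subunit of osteoclasts, at 12.7 and 13.9 CPM in U-87MG, against 0 to 1.63 CPM (median 0.0238) in the others, with a fold from 8.2-fold without SNU-1105 replicate 2 to 22.2-fold without SNU-1105 replicate 1.

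TFPI2, a Kunitz-type inhibitor of serine proteases in the matrix, was the most abundant called gene, with a mean of 2225 FPKM in U-87MG. It had 4324 and 6549.6 CPM in U-87MG, against 65.4 to 459 CPM (median 131) in the others (13.8-fold; log2 fold change 3.79 against U-138MG, SE 0.40, adjusted p = 9.49e-06). The lincRNA gene ENSG00000236453, the next listed gene beside TFPI2 (chromosome 7, 94022833 to 94066661; TFPI2 at chromosome 7, 93885396 to 93890991), had 96.4 and 109 CPM in U-87MG, against 0 to 10.4 CPM (median 1.65) in the others (14.7-fold; log2 fold change 3.88 against SNU-1105, SE 0.40, adjusted p = 7.67e-06). Its fold ranged from 9.85-fold without SNU-1105 replicate 2 to 22.8-fold without SNU-1105 replicate 1. TMPRSS15, the enteropeptidase that activates trypsinogen in the gut, had 300.4 and 225 CPM in U-87MG, against 0 to 19.4 CPM (median 4.14) in the others (14.1-fold; log2 fold change 3.81 against LN-229, SE 0.27, adjusted p = 2.37e-07). Of 24 tested genes of proteases and their inhibitors 4 were called above and 1 below, against 7.47% and 4.32% of all tested genes. The other two called above were ADAMTS18, a secreted metalloprotease, at 35.6 and 47.2 CPM in U-87MG, against 0 to 5.65 CPM (median 0.1) in the others, with a fold from 7.31-fold without SNU-1105 replicate 1 to 23.9-fold without SNU-1105 replicate 2, and SERPINB8, an intracellular serpin, at 110.3 and 114 CPM in U-87MG, against 37.7 to 58.4 CPM (median 49.3). SERPINB8 passed 2-fold narrowly, and its call was lost without LN-229 replicate 1 (0.94, adjusted p = 0.0216) or SNU-1105 replicate 2 (0.97, adjusted p = 0.00168). ADAMTS15, an aggrecan-cleaving metalloprotease, had 1 read in U-87MG, against 2.18 to 494 CPM (median 51.9) in the others. Its ratio of the lowest line, SNU-1105, to U-87MG was 119.6 (95% exact counting interval 21.0 to 4763; adjusted p = 2.26e-05).

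POU2F2, the lymphoid transcription factor Oct-2, had 206 and 293 CPM in U-87MG, against 0.204 to 17.6 CPM (median 1.05) in the others (14.8-fold over U-138MG; log2 fold change 3.88 against U-138MG, SE 0.28, adjusted p = 2.80e-07). Its antisense partner POU2F2-AS1, which lies inside the gene on the other strand, was called too, at 3.42 and 5.34 CPM in U-87MG, against 0 to 0.798 CPM (median 0). The libraries kept strand, but the counting setting is not stated, so reads of the pair may not be told apart. Among homeobox and EBF transcription factors POU2F2 was the only member of 21 tested called above, and 4 were called below. The shares over all tested genes were 7.47% above and 4.32% below. DLX1, a homeobox factor of forebrain interneurons, had 15.8 and 15.7 CPM in U-87MG, against 40.4 to 89.2 CPM (median 49.8) in the others (2.71-fold lower; log2 fold change -1.44 against U-138MG, SE 0.20, adjusted p = 1.14e-04). DLX5, of the same family, had 3 reads in U-87MG, against 0.857 to 65.5 CPM (median 21.6) in the others. Its ratio of U-138MG to U-87MG was 11.9 (95% exact counting interval 3.74 to 60.2; adjusted p = 2.43e-04). HOXA13, a factor of posterior body regions, had no read in either U-87MG library, against 0.151 to 4.75 CPM (median 1.27) in the others, and lay at least 4.73-fold under U-138MG by the floor of 3 reads (adjusted p = 0.0144). The HOXA13 call depended on single libraries. It was lost without U-138MG replicate 2 (-4.65, adjusted p = 0.143), U-87MG replicate 1 (-5.83, adjusted p = 0.0895) or U-87MG replicate 2 (-5.83, adjusted p = 0.0948), and its bound was 2.04-fold without U-138MG replicate 2. EBF2, a transcription factor of the EBF family, had 102 and 126 CPM in U-87MG and 73.8 ± 12.7 CPM in U-138MG (SD, n = 2), with at most 0.457 CPM in each library of the other 3 lines, and was not called.

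Of 26 tested genes of cyclic AMP and G protein signalling 4 were called above and 2 below, against 7.47% and 4.32% of all tested genes. BDKRB1, the bradykinin receptor that inflammation induces, had 62.5 and 81.2 CPM in U-87MG, against 0 to 5.19 CPM (median 0.251) in the others (16-fold over U-138MG, adjusted p = 4.76e-07). ADCY8, an adenylyl cyclase stimulated by calcium, had 108 and 101 CPM in U-87MG, against 0 to 43.3 CPM (median 1.23) in the others (2.76-fold; log2 fold change 1.47 against U-138MG, SE 0.22, adjusted p = 3.67e-04), and 0 reads in KNS-42 and LN-229. ADCYAP1R1, a receptor of the neuropeptide PACAP that raises cyclic AMP, had 4.44 and 3.04 CPM in U-87MG, against 0 to 1.38 CPM (median 0.227) in the others (2.86-fold; log2 fold change 1.51 against KNS-42, SE 0.42, adjusted p = 0.0268). On the other side OXTR, the oxytocin receptor, had 0.342 and 0.399 CPM in U-87MG, against 1.19 to 5.69 CPM (median 3.06) in the others (3.59-fold lower; log2 fold change -1.83 against LN-229, SE 0.42, adjusted p = 0.00711). PLCL1, a phospholipase C relative without catalytic activity, had 3 reads in U-87MG, against 0.508 to 2.9 CPM (median 1.66) in the others, and its ratio of SNU-1105 to U-87MG was 7.49 (95% exact counting interval 2.25 to 39.1). Receptor genes thus lay on both sides. The call of OXTR was lost without U-87MG replicate 1 (-1.72, adjusted p = 0.0722) or LN-229 replicate 2 (-1.67, adjusted p = 0.0506). ADCYAP1R1 was lost without U-87MG replicate 1 (1.21, adjusted p = 0.303), U-87MG replicate 2 (1.76, adjusted p = 0.0595), KNS-42 replicate 1 (1.44, adjusted p = 0.171) or KNS-42 replicate 2 (1.59, adjusted p = 0.121). PLCL1 was lost without U-87MG replicate 1 (-2.40, adjusted p = 0.223), U-87MG replicate 2 (-3.35, adjusted p = 0.115) or SNU-1105 replicate 2 (-2.68, adjusted p = 0.0851).

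**Figure D3:**
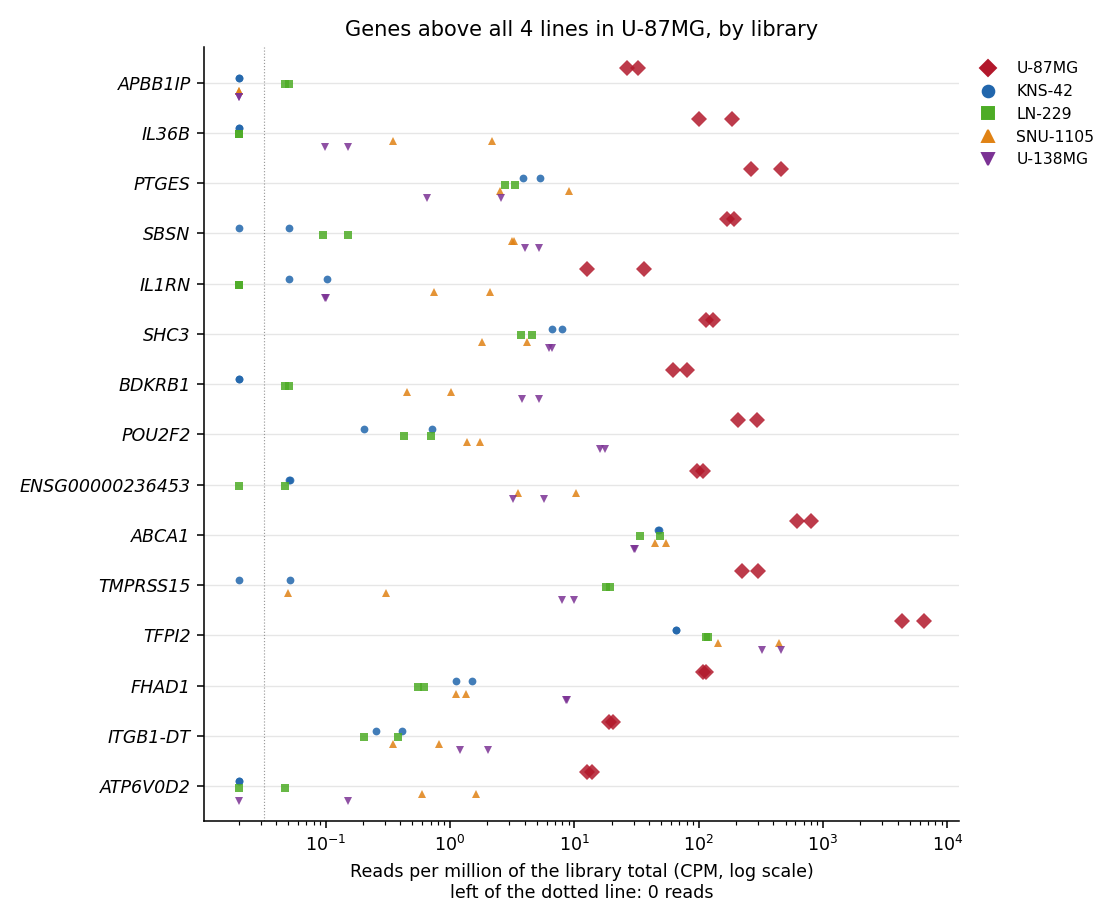
Level in each of the 10 libraries (CPM, log scale) of the 15 genes with the largest fold over the highest line, ordered by that fold. As the call requires, the U-87MG libraries (red diamonds) stand to the right of all 8 others for each gene, from APBB1IP with 0 reads in 6 of the other libraries to ABCA1 and TFPI2 with clear levels in all 8.

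Of 31 tested genes of ion channels and ionotropic receptors 1 was called above and 3 below, against 7.47% and 4.32% of all tested genes. CACNA1A, the pore subunit of a presynaptic calcium channel, had 187 and 229 CPM in U-87MG, against 0 to 27.8 CPM (median 1.67) in the others (8.3-fold over SNU-1105; log2 fold change 3.05 against SNU-1105, SE 0.28, adjusted p = 2.35e-06). KCNK2, a leak potassium channel, had 0.439 and 0.2 CPM in U-87MG, against 8.07 to 48.4 CPM (median 20.8) in the others (27.5-fold lower; log2 fold change -4.75 against LN-229, SE 0.32, adjusted p = 1.87e-07), and 44.1-fold without U-87MG replicate 1. GRIK2, a kainate receptor subunit, had 1.32 and 2.44 CPM in U-87MG, against 7.28 to 65.7 CPM (median 36.4) in the others (4.17-fold lower; log2 fold change -2.06 against U-138MG, SE 0.29, adjusted p = 1.18e-04). KCNQ5, a voltage-gated potassium channel, had 3.42 and 3.64 CPM in U-87MG, against 6.08 to 63.4 CPM (median 10.1) (2.25-fold lower; log2 fold change -1.17 against KNS-42, SE 0.29, adjusted p = 0.0126). Its call was lost without KNS-42 replicate 1 (-0.78, adjusted p = 0.202), LN-229 replicate 2 (-0.96, adjusted p = 0.0927), U-87MG replicate 1 (-1.12, adjusted p = 0.117) or U-87MG replicate 2 (-1.21, adjusted p = 0.0961).

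A receptor and its ligand in axon guidance went in opposite directions. DCC, the netrin receptor, had 52.8 and 37.3 CPM in U-87MG, against 0 to 12.6 CPM (median 0.0506) in the others (4.03-fold over LN-229; log2 fold change 2.01 against LN-229, SE 0.26, adjusted p = 7.10e-05). NTN1, which encodes netrin itself, had 0.0488 and 0.15 CPM in U-87MG, against 0.762 to 34.4 CPM (median 13.7) in the others (8.13-fold under SNU-1105; log2 fold change -2.95 against SNU-1105, SE 0.54, adjusted p = 0.00115), and 5.39-fold without U-87MG replicate 1. DCC was thus detected clearly in U-87MG and LN-229 and near 0 in the other 3 lines. EFNB1, a membrane-bound ephrin, had 3.46 and 3.89 CPM in U-87MG, against 8.22 to 28.4 CPM (median 13.4) in the others (2.32-fold lower; log2 fold change -1.21 against LN-229, SE 0.28, adjusted p = 0.00757). The EFNB1 call was lost without U-87MG replicate 1 (-1.13, adjusted p = 0.0948) or U-87MG replicate 2 (-1.30, adjusted p = 0.0582). The other 14 of 17 tested guidance genes were not called, where 7.47% of all tested genes were called above and 4.32% below. NRP1, a coreceptor of semaphorins, exceeded all 8 others at 788 and 839 CPM in U-87MG, against 221 to 473 CPM (median 360.4), but by less than 2-fold.

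Among the 10 genes with the largest fold under the lowest line, where that line had at least 10 CPM, IGFBP5 came first. IGFBP5, which binds insulin-like growth factors outside the cell, had 3.07 and 3.19 CPM in U-87MG, against 66.6 to 3002 CPM (median 1210.3) in the 8 others (27.4-fold under LN-229; log2 fold change -4.77 against LN-229, SE 0.23, adjusted p = 6.51e-09). It was also the only one of 18 tested growth factor and receptor kinase genes called in either direction. Over all tested genes 7.47% were called above and 4.32% below, so a list of this size is too small to tell. NGEF, an exchange factor that acts downstream of Eph receptors, had 0.781 and 0.898 CPM in U-87MG, against 11.3 to 73.2 CPM (median 28.4) in the others (15.6-fold lower; log2 fold change -3.96 against SNU-1105, SE 0.28, adjusted p = 2.80e-07). ITGB8, the integrin chain that activates latent TGF-beta, had 4.39 and 6.74 CPM in U-87MG, against 40.7 to 345 CPM (median 328) in the others (8.9-fold under U-138MG; log2 fold change -3.15 against U-138MG, SE 0.24, adjusted p = 3.41e-07). U-138MG was itself low in ITGB8, at 49.5 ± 12.5 CPM, where KNS-42, LN-229 and SNU-1105 had means from 326 to 334 CPM. SESN3, a sestrin that restrains growth signalling, had 7.12 and 4.84 CPM in U-87MG, against 36.2 to 938 CPM (median 117) in the others (7.43-fold lower; log2 fold change -2.89 against LN-229, SE 0.36, adjusted p = 3.35e-05). S1PR2, a receptor of sphingosine phosphate, had 3.46 and 3.84 CPM in U-87MG, against 11.4 to 36.1 CPM (median 19.5) in the others (3.47-fold lower; log2 fold change -1.79 against KNS-42, SE 0.23, adjusted p = 3.76e-05). The remaining members of the 10 were STON1, an endocytic adaptor, C1orf198, TRO, a MAGE family gene, ZNF875, a zinc finger gene, and OAS3, with folds under the lowest line from 3.4 to 7.13. All 10 had reads in both U-87MG libraries, so these were lower levels and not absences.

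**Figure D4:**
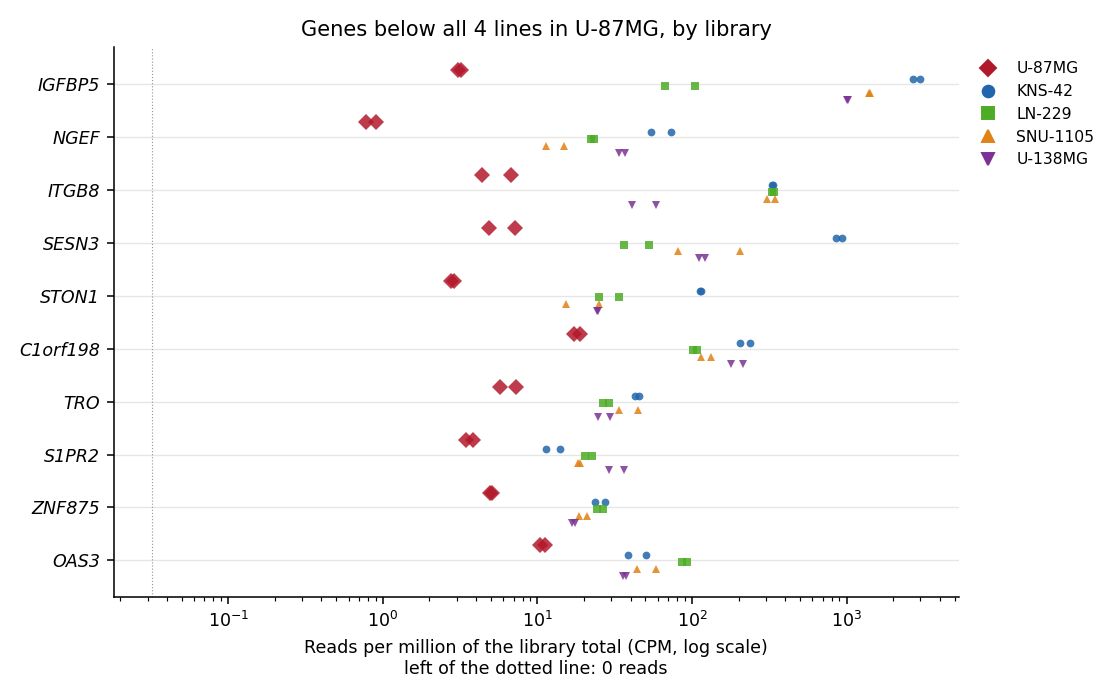
Level in each of the 10 libraries (CPM, log scale) of the 10 genes with the largest fold under the lowest line, ordered by that fold. As the call requires, the U-87MG libraries (red diamonds) stand to the left of all 8 others for each gene, with the widest spread among the other lines for IGFBP5 and SESN3.

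Of 19 tested matrix genes 0 were called above and 1 below, and of 34 adhesion genes 1 above and 2 below, near the shares over all tested genes (7.47% and 4.32%). LAMA4, a laminin alpha chain of vessel basement membranes, was the called matrix gene, at 131 and 137 CPM in U-87MG, against 244 to 832 CPM (median 411) in the others (2.09-fold lower; log2 fold change -1.07 against KNS-42, SE 0.22, adjusted p = 0.00278). That call was lost without SNU-1105 replicate 2 (-0.86, adjusted p = 0.00879). FN1, fibronectin, had 4261 and 3868 CPM in U-87MG, between the lowest line, KNS-42, at 163 ± 21.8 CPM, and the highest, U-138MG, at 14748 ± 645 CPM (SD, n = 2 each). Among the adhesion genes NRXN2, a presynaptic neurexin, was called above, at 72.4 and 66.5 CPM in U-87MG, against 0.0952 to 11.3 CPM (median 1.27) in the others (6.58-fold; log2 fold change 2.72 against U-138MG, SE 0.21, adjusted p = 3.41e-07). ITGB8 and LSAMP, a limbic membrane protein of the immunoglobulin family, were called below. LSAMP had 5.66 and 6.19 CPM in U-87MG, against 15.4 to 81.4 CPM (median 48.7) in the others, 2.66-fold lower than the lowest line.

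None of 10 tested p53 target genes was called, where 7.47% and 4.32% of all tested genes were, so a list of this size is too small to tell. MDM2, the p53 ubiquitin ligase, had 143 and 135 CPM in U-87MG, against 35.8 to 185 CPM (median 89.6) in the others. DDB2, a DNA damage recognition factor, had 37.3 and 31.7 CPM in U-87MG, higher than in KNS-42 (9.64 ± 1.91 CPM; log2 fold change 1.84, SE 0.20, adjusted p = 1.12e-06) and lower than in LN-229 (162 ± 8.13 CPM; log2 fold change -2.23, SE 0.20, adjusted p = 1.24e-07; SD, n = 2 each). None of 20 tested genes of the Wnt, BMP and TGF-beta pathways was called. GREM1, a secreted BMP antagonist, had 298 and 337 CPM in U-87MG and 1753 ± 167 CPM in KNS-42 (SD, n = 2), and its means in LN-229, SNU-1105 and U-138MG were from 0.226 to 0.301 CPM. So U-87MG shared a high GREM1 level with 1 of the 4 lines and differed from the other 3. None of the 2 tested cancer-testis genes was called.

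**Figure D5:**
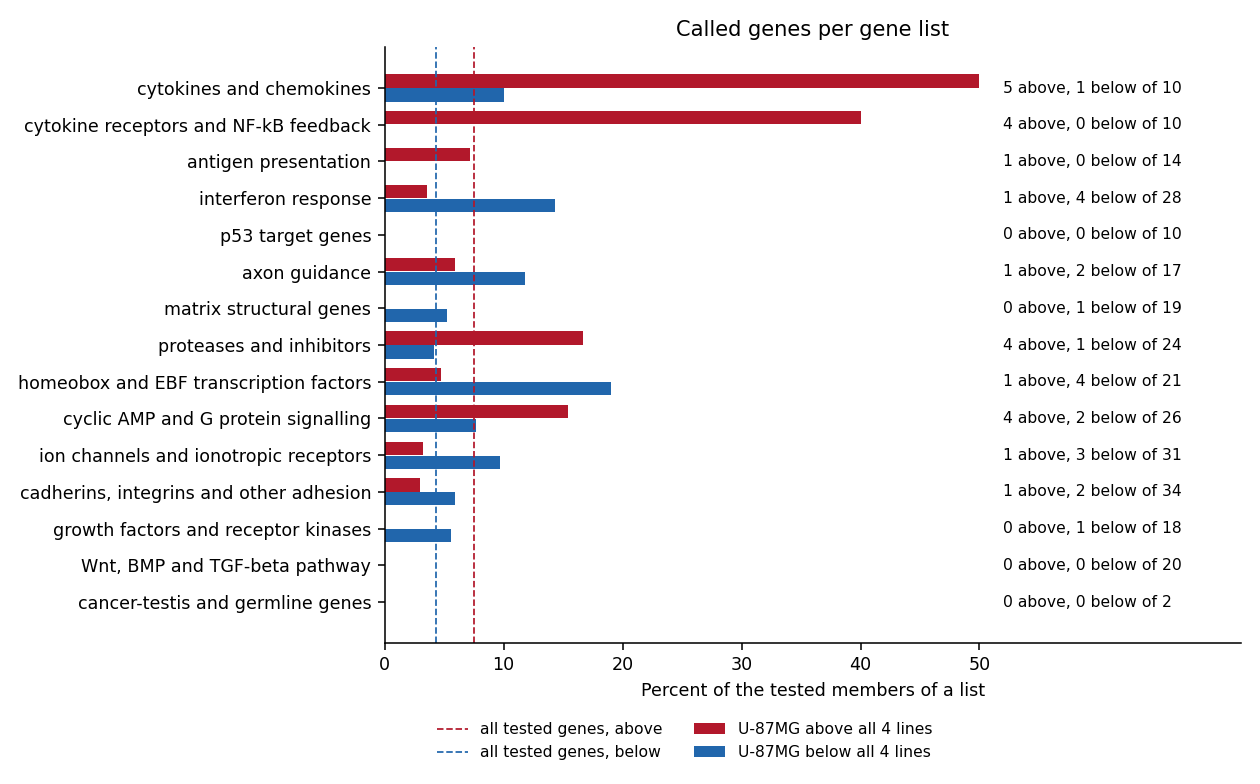
Percent of the tested members of each of 15 gene lists called above (red) or below (blue) all 4 lines in U-87MG, with the shares over all 1714 tested genes as dashed lines (7.47% and 4.32%). The cytokine list has 5 above and 1 below of 10, the receptor and feedback list 4 above of 10, and the interferon list 1 above and 4 below of 28.

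Called genes were spread over the genome at unequal shares, beside 7.47% above and 4.32% below over all tested genes. Chromosomes with the highest shares of called-above genes among those with at least 50 tested were 10 (9 of 56, 16.1%), 9 (7 of 51, 13.7%) and 8 (8 of 59, 13.6%). The lowest were X (1 of 55, 1.82%) and 3 (2 of 87, 2.3%). On the below side chromosome 11 had the highest share among these (10 of 99, 10.1%). Chromosomes 4, 8, 9 and 16 had 0 of 102, 59, 51 and 60. These shares were not tested. Apart from the interleukin-1 cluster, 8 pairs of adjacent listed genes within 500 kb were called in the same direction. They included TFPI2 with its lincRNA neighbour and, on the low side, TLR5, which encodes the flagellin receptor, with SUSD4 on chromosome 1 (223109406 to 223364202), both at 0 reads in U-87MG.

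The lines left out gave a further reference. Of the 128 genes above all 4 lines 112 (87.5%) also exceeded all 6 libraries of KALS-1, LN-18 and T98G, whereas 32 of the 74 genes below (43.2%) lay under them as well. Over all 1714 tested genes 857 exceeded those 6 libraries in U-87MG and 317 (18.5%) lay under them. The table consists mostly of genes that differ between the 5 lines and these 3, so these counts are not independent of which genes are listed. IL36B had 0 reads in the 6 left-out libraries, PTGES 0.0509 to 0.759 CPM and TFPI2 9.34 to 47.1 CPM. IFI44L, above the 4 lines, reached 1.43 to 365 CPM in the left-out libraries, and IL6ST 321 to 1932 CPM, so U-87MG lay inside the range of these libraries. IGFBP5 and STING1 stayed lower than all 6, with 3649 to 11818 CPM and 8.93 to 49.1 CPM there. For NGEF (0.424 to 6.53 CPM) and SESN3 (1.75 to 31.7 CPM) U-87MG fell inside the range of the left-out lines.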

How the data were processed

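The authors deposited raw read counts, FPKM and a gene length per gene and library; per the labels' protocols the libraries were poly(A)-selected and kept strand. The tools named by the submitters' processing notes are HISAT2 2.2.1, StringTie 1.3.3, HTSeq 0.6.0, FastQC 0.10.1 and cutadapt 1.9.1, on hg38/GRCh38, with no role stated. No annotation release is named. Library totals were worked back from counts, length and FPKM using genes of 20 FPKM and 200 reads or more, and they returned the deposited FPKM within 0.01 for at least 99.91% of genes. Counts were fitted with edgeR 4.0.16 (quasi-likelihood, 1 coefficient per line, these totals as library sizes, low counts filtered by line; R 4.3.3). SEs were taken from the F statistics. limma 3.58.1, DESeq2 1.42.0, TMM and RLE factors, other filters, a replicate block and each library or line left out were alternatives. The fit was also run on simulated counts, drawn from a shared mean per gene for the 4 other lines. Those counts lack the differences between these lines, so they are no support for the calls. Positions were matched in GENCODE 29 for 2153 of 2221 genes, and sequences are from RefSeq. Members, lists and tests were chosen with earlier results of these data known.

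Named genes were the 15 above (at least 10 CPM in U-87MG) and 10 below (lowest line at least 10 CPM) with the largest fold, and per list up to 6 called in each direction and up to 4 not called by level; some of these are not reported here. The 2 libraries of each line differed by more than sampling noise.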

Additional observations from a re-analysis of the deposited data

How the results depend on the processing

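Of the 59 called genes named above, 37 stayed called under all 21 alternatives tried on single genes and none changed direction. The counts of genes above and below all 4 lines were 114 and 87 with TMM factors, 126 and 75 with RLE factors, 116 and 70 with DESeq2, 119 and 72 without a low-count filter, and 92 to 137 and 60 to 77 with 1 library left out. With the replicate block they were 127 and 72. The replicate numbers did not pair the libraries (correlations of same-numbered deviations from -0.12 to 0.094), so the block is only a check. TMM moved the median log2 fold change of all tested genes by -0.30 against SNU-1105 and by -0.12 against LN-229. limma on log2(FPKM + 1) gave 78 genes above and 21 below all 4 lines. It gave 307 higher and 309 lower against KNS-42, 283 and 240 against LN-229, 268 and 176 against SNU-1105, and 219 and 189 against U-138MG. The pseudocount shrinks differences of low genes. The filter at 5 CPM left 276 genes lower than in SNU-1105, of 1142 tested. Leaving out U-138MG as a line raised the counts to 224 above and 156 below, and leaving out SNU-1105 raised those below to 117. Genes at a few reads, such as STING1, NTN1 and HOXA13, are limited by depth.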

Other observations

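Further called genes, chosen after their values were seen, are given as values. SOD2, a mitochondrial superoxide dismutase that NF-kB is known to induce, had 1291 and 2074 CPM in U-87MG, against 39.1 to 332 CPM (median 235) in the 8 others (5.41-fold over the highest line, edgeR adjusted p = 1.34e-05). C3AR1, the receptor of complement C3a, had 26.6 and 24.1 CPM in U-87MG, against 0.0515 to 3.4 CPM (median 0.635) in the others (7.62-fold, adjusted p = 1.26e-05). GPR84, a receptor of medium-chain fatty acids, had 5.32 and 5.14 CPM, against 0 to 0.661 CPM (median 0.0502) (14.7-fold, adjusted p = 3.00e-04). LAT2, an adaptor of leukocyte signalling, had 14.9 and 19.4 CPM, against 0.951 to 3.27 CPM (median 2.15) (5.68-fold, adjusted p = 1.26e-05). The leukocyte marker genes PTPRC and CD14 had 1 and 4 reads in U-87MG, but CSF1R of the same list was higher, as given above. The 5 listed leukocyte markers summed to 9.22 and 9.68 CPM in U-87MG, against 0.823 to 38.8 CPM in the 8 others.

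Lipid-handling genes other than ABCA1 included PLTP, the phospholipid transfer protein, at 258 and 297 CPM in U-87MG, against 5.74 to 67 CPM (median 27.5) in the others (4.53-fold, adjusted p = 1.17e-05). GLI3, a transcription factor of hedgehog signalling, was lower in U-87MG, at 39.3 and 41.2 CPM, against 79.5 to 169.7 CPM (median 127) in the others (2.1-fold lower, adjusted p = 7.14e-04). MAP3K14, the NF-kB inducing kinase of the noncanonical pathway, was lower too, at 5.27 and 5.49 CPM, against 10.9 to 28.7 CPM (median 16.7) (2.18-fold lower, adjusted p = 0.0016).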
